A study of Caenorhabditis elegans with 12 samples.

Results

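Along the central parts of chromosomes II, III, IV and V of the nematode Caenorhabditis elegans, 319 separate stretches of genome carried A-to-G sites, adenosines of the genome that were read as guanosine in RNA. Listed sites were joined into 1 region wherever the gap between them was 1000 bp or less, whichever strand they were on, and those regions were kept whose midpoint lay in the middle 33.3% of the chromosome, with the highest listed coordinate as its length. The 319 centre regions held 7314 sites, out of 2710 regions and 82895 sites in the whole table. They were set against the 1559 regions, with 50088 sites, on the outer parts (arms) of the same 4 chromosomes.

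ADAR enzymes act on double-stranded RNA and turn adenosine into inosine there, and inosine is read as guanosine when RNA is copied into DNA for sequencing. In C. elegans, ADR-2 is the active deaminase and ADR-1, which lacks deaminase activity, binds RNA and guides it. Long double-stranded RNA commonly arises where a transcript holds a repeat and its inverted copy, which fold back on each other, and such RNA is typically edited at many neighbouring adenosines. ADAR enzymes are known to edit less where G precedes the adenosine and more where G follows it. The centres of worm autosomes are known for conserved genes and few repeats, whereas the arms are richer in repeats.

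The sites were deposited for a series of 12 RNA-seq libraries of the wild-type strain Bristol N2. Worms at 6 numbered stages (stage 1 embryo, stages 2 to 5 all labelled L1-L4, stage 6 Young Adult) gave total RNA that was depleted of ribosomal RNA. At each stage, 1 aliquot was treated with RNase R, which degrades linear but not circular RNA, and 1 was mock treated, which makes 6 RNase R and 6 mock libraries. All worms carried the wild-type genome, and no mutant of an editing enzyme was among them. The table of sites names no library, so that nothing here could be assigned to a stage or a treatment, no replicate error exists, and sequencing depth is unknown. The unit of every comparison below is therefore the region. Each site has a whole-number score of at least 1 whose meaning the sources used here do not give, and it was not taken as a read count. How a site was given its strand is not stated there either. Coordinates are 1-based as deposited. The genome build is not given in the sources used here and differs from the annotation at hand, so no region is assigned to a gene, exon or intron.

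Each listed site comes with its 3 genome bases, so stretches dense in sites can be spelled out from the table itself. The windows printed here are those of 120 bases with the most known bases, in the centre region with the most sites on each chromosome. They are shown because they give the texture of a densely edited stretch. Each runs 5′ to 3′ on the strand named; a capital A is a listed site on that strand, a capital T marks a site listed on the opposite strand, and n is a base that no listed triplet gives.
IV, minus strand, chrIV:10351372-10351491: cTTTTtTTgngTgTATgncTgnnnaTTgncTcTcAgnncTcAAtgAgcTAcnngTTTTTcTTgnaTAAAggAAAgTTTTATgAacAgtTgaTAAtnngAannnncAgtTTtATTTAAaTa
III, minus strand, chrIII:5787745-5787864: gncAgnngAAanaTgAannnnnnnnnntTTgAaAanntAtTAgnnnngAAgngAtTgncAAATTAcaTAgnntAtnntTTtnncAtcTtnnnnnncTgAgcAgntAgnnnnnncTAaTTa
V, minus strand, chrV:13037314-13037433: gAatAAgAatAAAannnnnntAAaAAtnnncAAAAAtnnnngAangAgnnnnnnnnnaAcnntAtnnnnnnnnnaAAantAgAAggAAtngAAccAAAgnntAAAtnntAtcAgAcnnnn
II, plus strand, chrII:6983714-6983833: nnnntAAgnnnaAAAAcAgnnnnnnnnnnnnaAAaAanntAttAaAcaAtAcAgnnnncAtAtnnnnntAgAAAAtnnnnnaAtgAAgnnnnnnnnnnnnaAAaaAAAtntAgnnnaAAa

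The window on IV had 103 known bases and held 22 sites on the strand shown and 37 on the other, so that sites of both strands lay among each other. The III window held 22 sites on the strand shown and 15 on the other. By contrast, the V window held 38 sites on the strand shown and 0 on the other, and the II window held 34 and 0. G stood before 8, 6, 8 and 2 of the sites in the windows on IV, III, V and II.

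**Figure D1:**
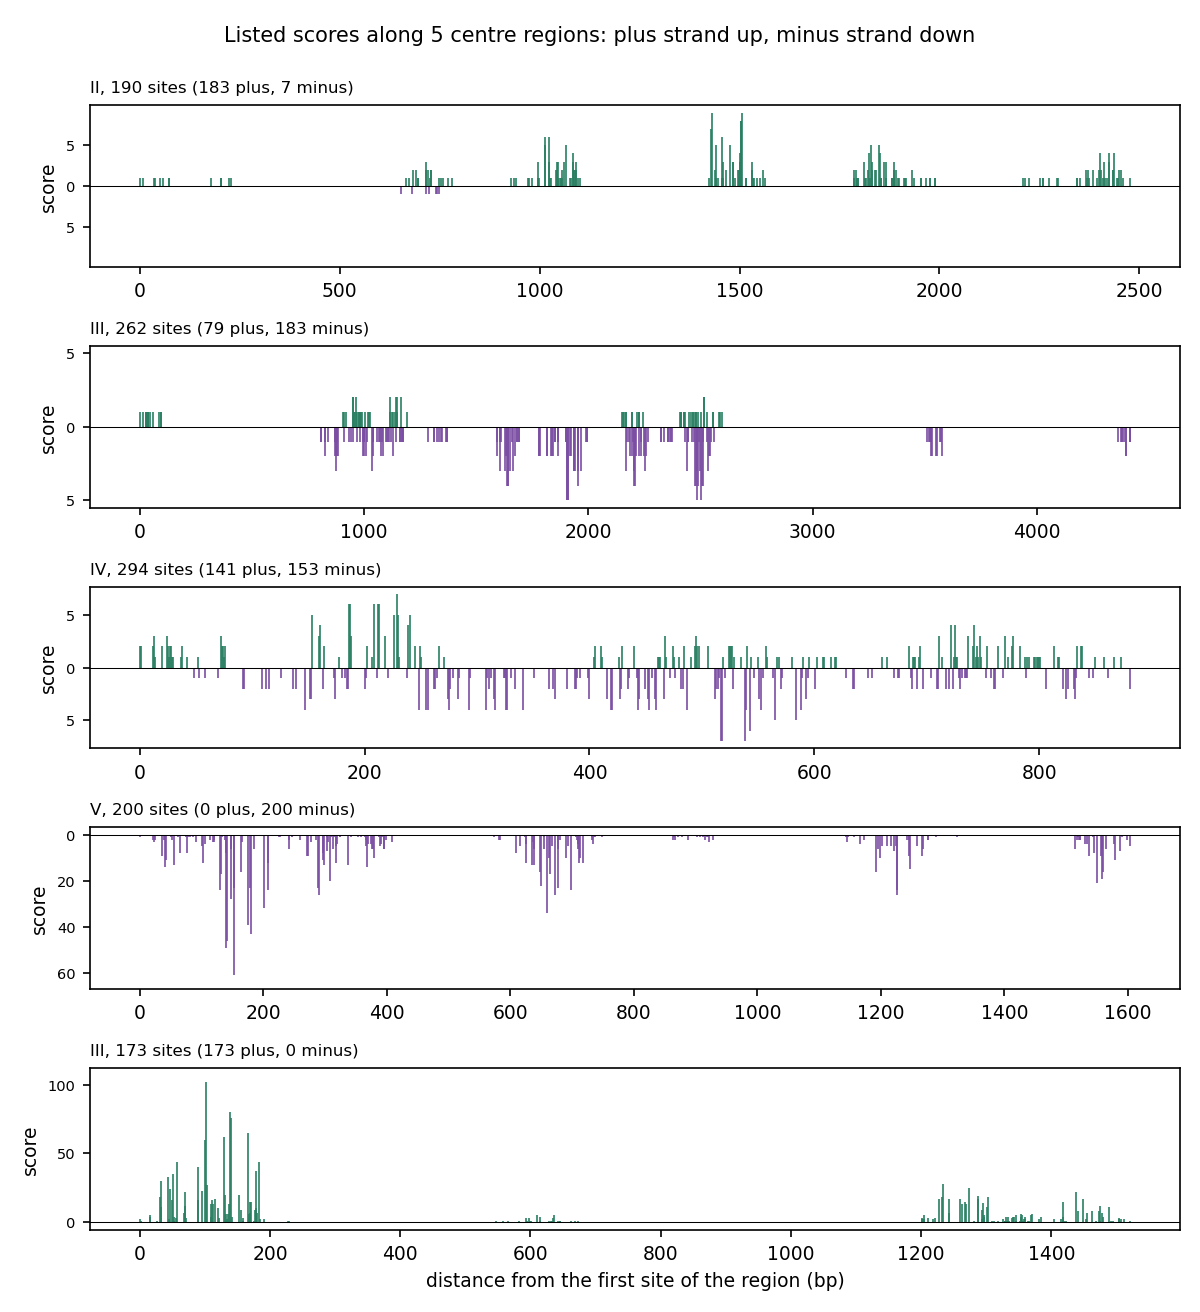
Score of each listed site (vertical axis) against its distance in bp from the first site of the region (horizontal axis) in 5 centre regions, with plus-strand sites drawn upward in green and minus-strand sites downward in purple. Sites of the regions on IV (294 sites) and III (262 sites) stand on both strands, whereas the region with 200 sites on V and the III region with 173 sites carry the highest scores, 61 and 102, on 1 strand.

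The 10 centre regions with the most sites held 127 to 294 sites each. The largest, chrIV:10350689-10351570, had 294 sites within 882 bp, with 141 plus-strand and 153 minus-strand sites, which overlapped over 826 bp. Its density was 33.3 sites per 100 bp, against a centre median of 11.25, while its highest score was only 7 and its median score 2. Density counted the sites of both strands together, and only 32 of the 319 centre regions had sites on both. The second, chrIII:5785320-5789736, was spread over 4417 bp with 79 plus-strand and 183 minus-strand sites, a median score of 1 and a highest score of 5. It was the longest of the 319. The third, chrV:13037033-13038637, had all its 200 sites on the minus strand, a median score of 4 and a highest score of 61. The fourth, chrII:6981934-6984411, had 183 plus-strand and 7 minus-strand sites, with a highest score of 9. The fifth, chrIII:5459446-5460967, had 173 sites, all on the plus strand, a median score of 4 and the highest score of any centre site, 102, at an adenosine between A and G at position 5459547.

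The other five of these regions lay on II (163 and 144 sites, all on the plus strand), IV (139 sites, 116 plus and 23 minus) and V (130 sites, 5 plus and 125 minus, and 127 sites, 9 plus and 118 minus). Their highest scores ran from 5 to 8. Of the 10 regions, those on III and V with 173 and 200 sites had 52 and 51 sites with a score of at least 10, and the remaining 8 had no such site. Among centre regions outside the largest 10, high scores were found on II in regions of 111 sites (highest score 17, all minus strand), 36 sites (16, all minus strand) and 26 sites (16, all plus strand), and on III in a region of 85 sites (18, all plus strand). Among regions with at least 8 sites, the highest median score after 4, namely 3.5, belonged to the 26-site region chrII:9567243-9567367, whose sites lay within 125 bp. The region of 37 sites on IV, chrIV:7359914-7360860, had a median score of 3 and a highest score of 11.

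The 4 centres were similar in how many regions they held. There were 73 centre regions on II, 72 on III, 89 on IV and 85 on V, with 2028, 1818, 1883 and 1585 sites. Per length this was 14.4 regions per Mb on II, 15.7 on III, 15.4 on IV and 12.2 on V. The centres together had 14.2 regions and 326 sites per Mb, against 34.8 regions and 1117 sites per Mb on the arms. Centre regions were also isolated: the nearest other region was a median of 17.4 kb away for centre regions and 4.66 kb away for arm regions, and 27.3% of centre regions had a neighbour within 5 kb, against 52.0% of arm regions. Within the centres themselves, the left, middle and right parts of equal length held 110, 135 and 74 regions, with medians of 11, 12 and 11 sites. The 4 centre regions nearest to the limit with the arms had 9, 4, 8 and 14 sites, and the 4 arm regions nearest to it had 17, 10, 7 and 4.

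**Figure D2:**
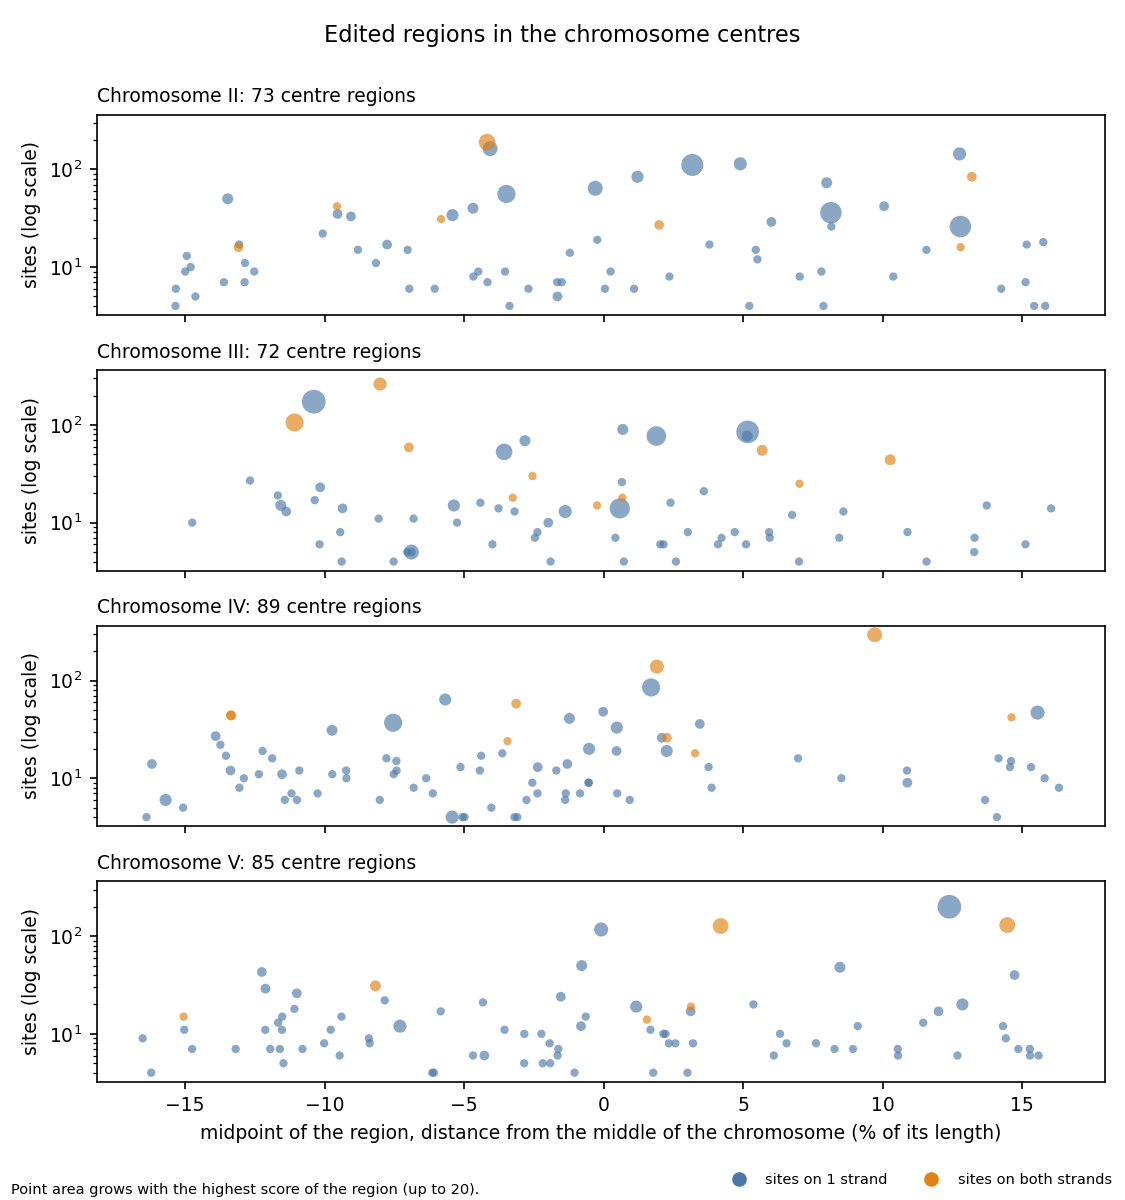
Each point is a centre region, placed by the distance of its midpoint from the middle of its chromosome in percent of chromosome length (horizontal axis) and by its number of sites on a log scale (vertical axis); area grows with the highest score up to 20, and orange marks regions with sites on both strands. Regions lie along all 4 centres, with 294 sites in the largest, and the right part of the IV centre is sparse.

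Centre regions were smaller than arm regions. They had a lower quartile of 7, a median of 11 and an upper quartile of 19 sites, against 8, 15 and 36 sites on the arms. The geometric mean number of sites in centre regions was 0.74 times that in arm regions of the same chromosome (log2 difference -0.44, SE 0.0996, n = 1878 regions, adjusted p = 0.000154). Without regions that shared an 8-site pattern with another region, a measure described further on, the difference was -0.24 (n = 313 centre regions, adjusted p = 0.0261). The smallest region had 4 sites in centres and on arms alike. At the other end, 14 centre regions (4.39%) and 99 arm regions (6.35%) had at least 100 sites, and they held 31.0% of centre sites and 33.7% of arm sites. These and the following adjusted p-values come from a linear model over the 1878 regions of II to V, with the chromosome as a term, two-sided, with errors clustered by 1 Mb interval (69 clusters) and Benjamini-Hochberg adjustment over 19 measures. They describe variation between regions of 1 table, not between worms. Of the 19 measures, 9 were lower and 3 were higher in centre regions after adjustment, and 7 did not pass.

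Centre regions were also shorter in base pairs. The median span was 84 bp in centre regions and 113 bp in arm regions, and 209 centre regions (65.5%) but 48.9% of arm regions spanned at most 100 bp. On the log2 scale the difference in span was -0.47 (SE 0.131, n = 1878 regions, adjusted p = 0.00185), a ratio of 0.72. When only sites with a score of at least 2 were merged again, which left 93 centre regions, neither sites per region (-0.32, n = 93, adjusted p = 0.199) nor span (-0.11, adjusted p = 0.757) passed. With the number of sites as a term, the difference in span was 0.02 (n = 1878, adjusted p = 0.811), and on II alone the regions differed in span by -0.04 on the log2 scale. Most centre regions were a single run, meaning sites of 1 strand with no gap above 100 bp. This held for 225 of the 319 (70.5%), against 58.8% of arm regions. Runs had a median of 10 sites over 78 bp in centres and 11 sites over 85 bp on arms, and no run of either had under 4 sites.

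How tightly sites were packed did not differ past the threshold. Centre regions had a median of 11.25 sites per 100 bp and arm regions 10.98, and the fitted ratio was 1.02 (95% interval 0.946 to 1.11, n = 1878 regions, adjusted p = 0.661). In centres 48.9% of sites were directly adjacent to another site of the same strand and 90.8% had one within 10 bp. On arms these shares were 53.6% and 91.8%. Since no run of either part had under 4 sites, no listed site there stood alone. Whether the unstated filters left out lone sites cannot be told, so these shares describe listed sites only.

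**Figure D3:**
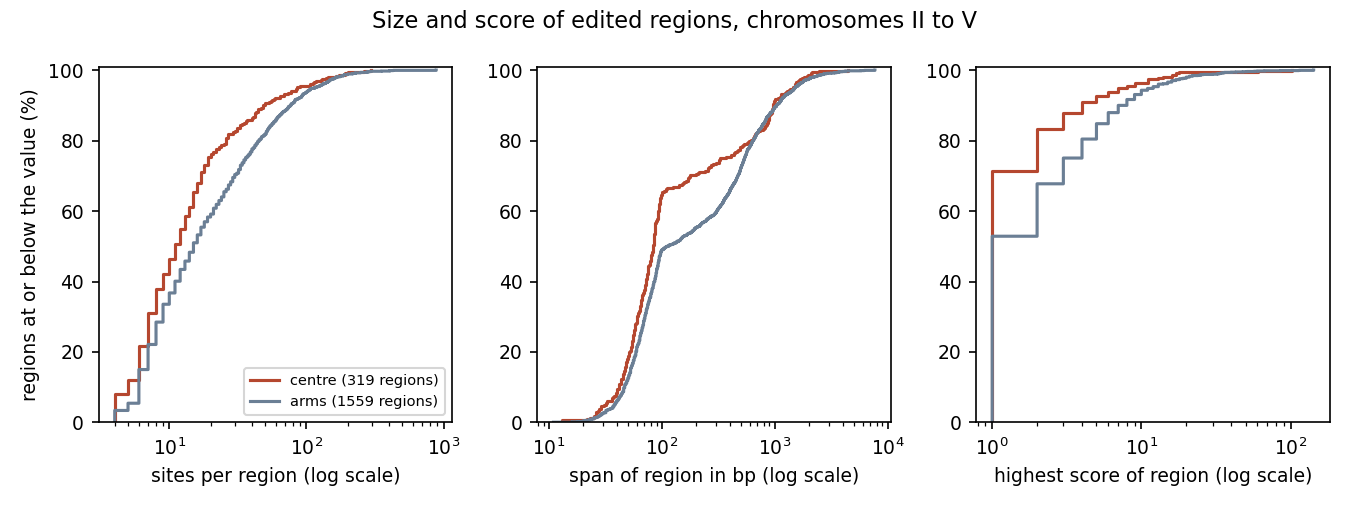
Cumulative share of regions (vertical axis, %) at or below a given number of sites, span in bp and highest score (horizontal axes, log scales), for 319 centre regions (red) and 1559 arm regions (blue-grey) of II to V. The centre curves lie above the arm curves over most of each range, and 71.5% of centre regions against 52.9% of arm regions have no score above 1.

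Scores were lower in the centres. In 228 of the 319 centre regions (71.5%) every site had a score of 1, against 824 of the arm regions (52.9%). The 228 regions were small, a median of 8 and at most 42 sites each, and together held 2380 of the 7314 centre sites; the other 91 had a median of 36 sites. Averaged over regions, 89.5% of the sites of a centre region and 80.7% of those of an arm region had a score of 1, a difference of 8.58 percentage points within chromosomes (SE 1.46, n = 1878 regions, adjusted p = 1.4e-06). The highest score of a region differed by -0.43 on the log2 scale, a ratio of 0.74 (SE 0.0828, n = 1878, adjusted p = 1.06e-05). With the log2 number of sites as a further term, both differences became smaller and passed still, at 3.77 percentage points (n = 1878, adjusted p = 0.00168) and -0.12 on the log2 scale (adjusted p = 0.0257). Without regions that shared an 8-site pattern they were 5.56 percentage points (n = 313 centre regions, adjusted p = 0.000366) and -0.25 on the log2 scale (adjusted p = 0.00165). The median score differed by -0.07 on the log2 scale (SE 0.0269, n = 1878, adjusted p = 0.0132), and with the number of sites as a term by -0.02 (adjusted p = 0.699). It was above 1 in only 22 centre regions (6.90%) and 242 arm regions (15.5%), and in all others it was 1. The call for the median score also ended without the regions of II (-0.07) or of IV (-0.06). Among sites with a score of at least 2, the highest score differed by -0.16 (n = 93 centre regions, adjusted p = 0.375).

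Only 29 centre regions (9.09%) contained a site with a score of at least 5, against 305 arm regions (19.6%). A score of at least 10 was found in 12 centre regions (3.76%), 4 on II, 5 on III, 2 on IV and 1 on V, and in 6.93% of arm regions. Beyond those already described, the 12 included a compact region of 14 sites on III with a highest score of 14, chrIII:6971472-6971527, named here after its values were seen. Of the 12, 1 had sites on both strands, against 32 of all 319 centre regions (10.03%). Counted over sites, 155 centre sites (2.12%) and 1378 arm sites (2.75%) reached a score of 10. The regions with 173 and 200 sites contributed 52 and 51 of these 155 centre sites.

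Sites on both strands were found in 32 centre regions (10.03%), 7 on II, 10 on III, 9 on IV and 6 on V, and in 221 arm regions (14.2%). The remaining centre regions divided evenly, 144 with plus-strand sites only and 143 with minus-strand sites only. The difference from the arms was -3.98 percentage points (SE 1.47, n = 1878 regions, adjusted p = 0.0137). It went with region size: the 32 regions had 14 to 294 sites with a median of 36.5, and with the log2 number of sites as a term the difference was 0.56 percentage points (n = 1878, adjusted p = 0.811). Without the regions of II it was -3.15 (n = 246 centre regions, adjusted p = 0.0728) and without those of V -3.30 (n = 234 centre regions, adjusted p = 0.116).

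Among the 32, the less frequent strand held a mean of 29.9% of the sites, and 27.9% in the 221 arm regions (difference 2.23 percentage points, 95% interval -3.42 to 7.88, n = 253 regions, adjusted p = 0.549). The mix ranged from 3.68% in the II region of 190 sites to an even split, as in chrIII:8306583-8307074 with 22 plus-strand and 22 minus-strand sites. The less frequent strand had at least 30% of the sites in 19 of the 32 and under 10% in 3. In 14 of the 32 every score was 1. The stretches covered by the sites of each strand overlapped in 17 of the 32 centre regions (53.1%) and in 157 of the 221 arm regions (71.0%). In the others the strands followed each other without overlap, as in chrIV:6351709-6351991, where 113 bp separated 19 minus-strand from 25 plus-strand sites.

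Adenosines with A on both sides were the most frequent kind of site in the centres, 25.7% of all centre sites against 28.3% on arms. TAA (10.3%), AAT (9.91%) and CAA (8.05%) followed in the centres. The triplet with G on both sides of the adenosine made up 2.21% of centre sites and 1.89% of arm sites. The bases of all adenosines in these regions, edited or not, could not be counted without a genome of the table's build, so these shares do not separate a preference of the enzyme from the composition of the sequence.

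Weighting every region equally, G preceded 11.0% of the sites of a centre region and 9.08% of those of an arm region, a difference within chromosomes of 1.95 percentage points (SE 0.638, n = 1878 regions, adjusted p = 0.00844). G followed 21.5% of the sites in centre regions and 19.1% in arm regions, a difference of 2.39 (SE 0.791, n = 1878, adjusted p = 0.00844). A was less common on either side, with a difference of -3.11 percentage points before the site (44.7% in centres, 47.9% on arms, n = 1878, adjusted p = 0.00844) and -3.21 after it (48.1% in centres, 51.4% on arms, adjusted p = 0.0131). The differences for T and C did not pass on either side, with estimates between 0.09 and 1.08 percentage points and adjusted p-values from 0.392 to 0.889. Among sites with a score of at least 2, T before the site passed, at 36.1% in centre regions and 29.7% in arm regions (difference 6.35 percentage points, n = 93 centre regions, adjusted p = 0.0132), and with scores of at least 5 its sign was the opposite (-1.54, adjusted p = 0.907). The share with G after minus the share with G before, an asymmetry known for ADAR, was 10.6 percentage points in centre regions and 10.05 in arm regions. That difference of 0.44 (95% interval -1.52 to 2.40) did not pass either (n = 1878, adjusted p = 0.733).

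Several of these calls depended on the setting. With the number of sites as a term, G before the site still differed, by 1.94 percentage points (n = 1878, adjusted p = 0.0219), and G after it by 1.74 (adjusted p = 0.0758). The values for A then were -2.53 before (n = 1878, adjusted p = 0.0551) and -2.65 after the site (adjusted p = 0.0676). Without the regions of III the differences in G were 1.33 before (n = 247 centre regions, adjusted p = 0.129) and 2.00 after the site (adjusted p = 0.0699), and without those of V 1.81 before (n = 234 centre regions, adjusted p = 0.0651) and 1.56 after it (adjusted p = 0.135). The differences in A also missed the threshold without III, at -2.97 before (n = 247 centre regions, adjusted p = 0.0556) and -2.69 after the site (adjusted p = 0.117). The difference in A before missed it without II (-2.64, n = 246 centre regions, adjusted p = 0.0638), and that in A after without V (-2.94, n = 234 centre regions, adjusted p = 0.0842). In all, A before lost its call in 4 of 17 alternatives and A after in 7. By chromosome, G preceded 10.8% of the sites in centre regions and 9.10% in arm regions on II, 13.4% and 9.46% on III, 9.09% and 8.997% on IV, and 11.1% and 8.73% on V. For G after the site these shares were 19.4% and 19.1% on II, 22.3% and 18.6% on III, 20.4% and 19.6% on IV, and 23.9% and 19.2% on V. Among sites with a score of at least 2, merged again into 93 centre regions, the difference in G before was -0.0040 percentage points (n = 93, adjusted p = 0.997).

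Individual centre regions varied widely around these means. In the 10 largest, G preceded between 6.87% (the III region of 262 sites) and 18.0% (the IV region of 139 sites) of the sites and followed between 13.2% (the II region of 144 sites) and 26.7% (the III region of 262 sites), and the share after exceeded the share before in each of the 10. In 94 of the 319 (29.5%) no site had G before it, against 442 of 1559 arm regions (28.4%). At least 30% of the sites had G before in 17 of the 319 centre regions and in 40 of the 1559 arm regions. The 17 were small regions of 4 to 14 sites. Of these, 13 had no score above 1, against 228 of all 319 centre regions (71.5%). G followed a larger share of sites than it preceded in 209 centre regions (65.5%) and a smaller share in 34, while on arms 71.5% had the larger share after the site.

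**Figure D4:**
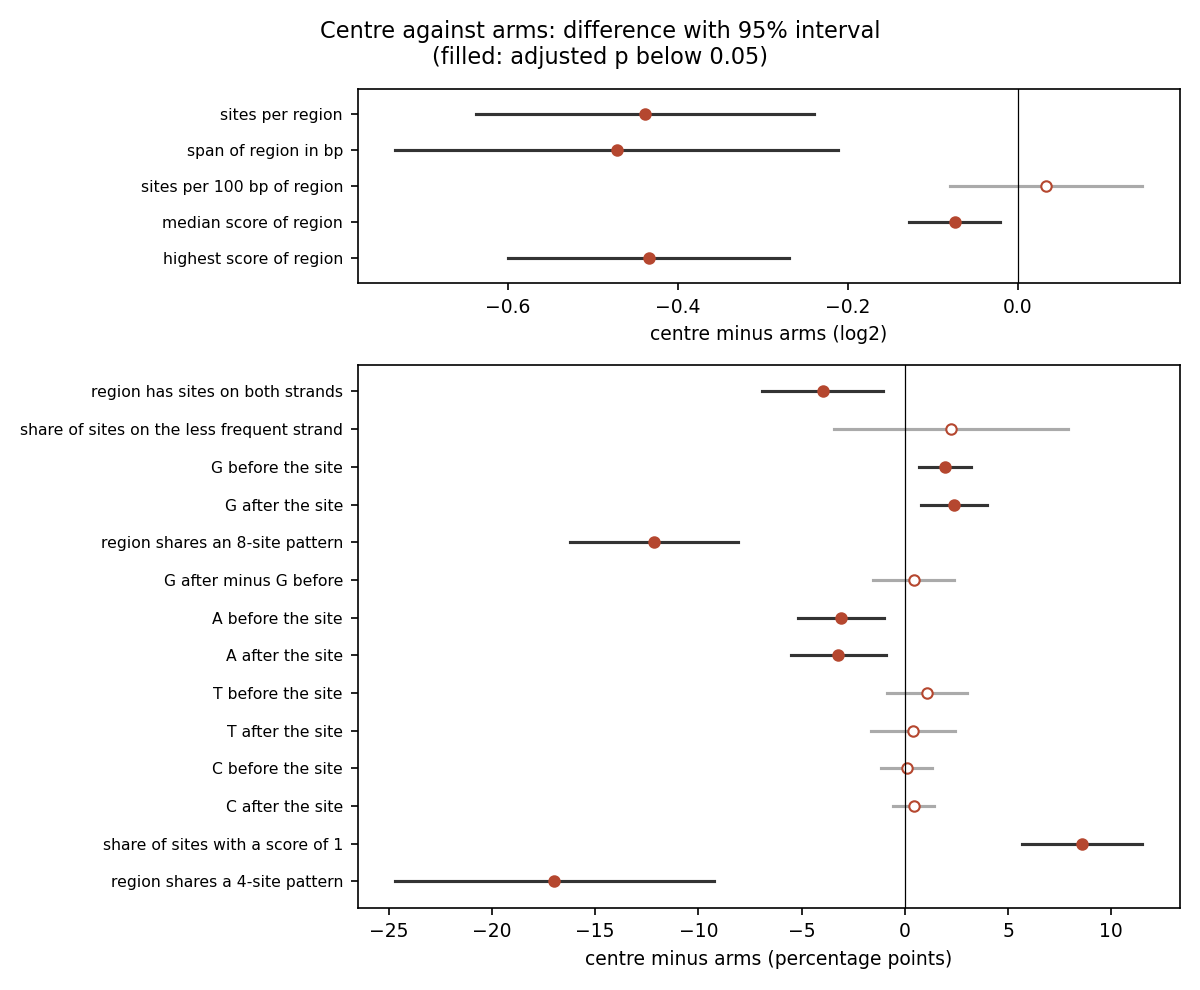
Difference of centre minus arm regions (points) with its 95% interval (bars) for the 19 measures, on the log2 scale in the upper panel and in percentage points in the lower panel; filled points passed at an adjusted p of 0.05. Sharing of site patterns lies farthest to the left, at -17.0 and -12.1 percentage points, and the share of sites with a score of 1 farthest to the right, at 8.58.

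Repeats leave copies of the same sequence at several places, and edited copies can show the same pattern of sites. A pattern was taken as the triplets and the spacings of 8 consecutive sites of a run, read on the strand of the sites. It had no minimum span, so that a tract of 8 adenosines could make a match by itself. How many of the shared patterns in centre or arm regions were such tracts was not counted. Of the 214 centre regions whose runs reached 8 sites, 6 (2.80%) had a pattern in common with another region of the table, against 181 of 1185 arm regions (15.3%). The difference was -12.1 percentage points (SE 2.04, n = 1399 regions, adjusted p = 1.4e-06), and -7.62 with the number of sites as a term (adjusted p = 0.000327). With only scores of at least 5, which left 14 such centre regions, it was -1.20 (n = 14, adjusted p = 0.63). It had the same sign on every chromosome: 1.96% of centre regions and 12.4% of arm regions on II, 8.33% and 19.8% on III, 0% (0 of 63) and 16.8% on IV, and 1.92% and 10.8% on V. Shorter patterns, of 4 sites over at least 12 bp, were shared by 120 centre regions (37.6%) and 854 arm regions (54.8%), a difference of -17.0 percentage points (SE 3.87, n = 1878, adjusted p = 0.000154), and -7.74 with the number of sites as a term (adjusted p = 0.0424). On II this shorter measure hardly differed, with 47.9% of centre regions and 49.1% of arm regions.

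The 6 centre regions that shared an 8-site pattern lay on III (4 regions), II and V. The region of 36 sites on II, chrII:8860326-8860645, had 8 partner regions, all of them on arms and on other chromosomes. The III region with 173 sites and the III region with 106 sites, chrIII:5365230-5366092, each had 3 partners and were partners of each other. The remaining 3 had 1 partner each, on an arm of another chromosome. For 4 of the 6, the shared stretch of the centre region is set beside the matching stretch of a partner region on an arm. Identical letters at identical spacings are what the match consists of (capitals are listed sites). Whether the matching stretches have a common origin was not tested.
II centre, minus strand, chrII:8860591-8860610: tAAAAcAAtnnncAAgtAAa
III arm, plus strand, chrIII:200504-200523: tAAAAcAAtnnncAAgtAAA
III centre, plus strand, chrIII:5460770-5460792: tAgcAAAAAAAAtnncAAAgaAA
II arm, plus strand, chrII:1828632-1828654: tAgcAAAAAAAAtnncAAAgaAa
V centre, minus strand, chrV:13038546-13038565: gAtnnnnncAAAAAAtntAg
III arm, minus strand, chrIII:12930676-12930695: gAtnnnnncAAAAAAtntAg
III centre, plus strand, chrIII:8306962-8307019: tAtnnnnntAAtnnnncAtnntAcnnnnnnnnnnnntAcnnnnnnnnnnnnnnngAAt
IV arm, minus strand, chrIV:1653260-1653317: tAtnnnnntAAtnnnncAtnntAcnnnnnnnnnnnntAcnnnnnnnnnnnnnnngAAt

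In the first and second pairs 17 and 21 bases were known. The paired stretches differed at 1 listed site, which is a site in one stretch and a plain adenosine in the other. The V and III stretches and the III and IV stretches held only the 8 sites of a shared pattern. Their sites were therefore the same by definition. The match between the III region with 106 sites and its partners rested on a tract of adenosines, cAAAAAAAAt at chrIII:5365451-5365460.

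A fold-back was sought in each region by laying its known bases against their own reverse complement. The best-scoring pair of stretches was kept, and each mismatch cost as much as 3 matches gained. Few or no mismatches in a kept pair were thus built into the search. At least 15 known pairs were found in 5 centre regions (1.57%) and 69 arm regions (4.43%); this search was added after the data were seen, was not tested, and depends on how many bases the triplets give. The most known pairs, 39, were in the III region of 262 sites, between stretches of 62 bases separated by 1384 bp. Its 5′ stretch is printed with its 3′ stretch under it, the 3′ stretch being read on the opposite strand so that paired bases line up, because the match is between these letters; capitals are listed sites, A for the strand shown and T for the other.
III 5′ stretch, minus strand, chrIII:5787745-5787806: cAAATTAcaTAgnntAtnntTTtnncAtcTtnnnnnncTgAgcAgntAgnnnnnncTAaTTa
III 3′ stretch on the plus strand, chrIII:5786299-5786360: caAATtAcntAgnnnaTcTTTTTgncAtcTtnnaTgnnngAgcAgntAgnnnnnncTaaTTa

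The 5′ stretch carried 11 sites on the strand shown and 10 on the other, and the 3′ stretch 8 and 12. The V region of 200 sites had 19 known pairs with 0 mismatches between 52-base stretches 1442 bp apart, with 13 sites in its 5′ stretch and 14 in its 3′ stretch, all on the minus strand.
V 5′ stretch, minus strand, chrV:13038563-13038614: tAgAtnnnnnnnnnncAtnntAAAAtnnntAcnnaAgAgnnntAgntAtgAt
V 3′ stretch on the plus strand, chrV:13037069-13037120: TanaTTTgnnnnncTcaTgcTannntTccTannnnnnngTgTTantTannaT

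The others were the III region of 106 sites and the V region of 130 sites, each with 16 pairs, and the IV region of 44 sites. The latter had 15 pairs and 1 mismatch between stretches of 24 bases. Its stretches had their sites on different strands, with all 9 of the 5′ stretch on the minus strand and all 7 of the 3′ stretch on the plus strand. The IV region of 294 sites, the densest of the 319 when both its strands were counted together, had 10 pairs at best. A related search asked whether the plus-strand and minus-strand sites of 1 region showed the same 4-site pattern. It found 2 of the 32 centre regions and 15 of the 221 arm regions with sites on both strands.

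Scores were also compared within runs, between adenosines of the same stretch and strand. In the 29 centre regions with a run whose highest score was at least 5, sites followed by C had lower scores than the other sites of their run, with a mean difference of -0.46 on the log2 scale (n = 27 regions, SE 0.0796, adjusted p = 0.000541 from the clustered mean, Benjamini-Hochberg over 8 bases). The value was below 0 in 19 of the 27. Sites preceded by G had lower scores, with a mean difference of -0.33 (n = 28 regions, SE 0.121, adjusted p = 0.0476, lower in 21 of 28), and sites followed by G had higher ones, with 0.18 (SE 0.0658, adjusted p = 0.0476, higher in 19 of 28). For A before or after, T before or after and C before the site, means lay between -0.09 and 0.16 and did not pass.

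The base values of the arms were -0.26 for C after, -0.28 for G before and 0.19 for G after. Of the 8 differences between centre and arm regions, T after the site alone passed, with a mean of -0.0016 in centre regions and -0.18 in arm regions (difference 0.19, SE 0.0647, n = 28 centre regions, adjusted p = 0.0334). Of these 28 centre regions, 17 had a value for T after below 0 and 11 above it. Other settings were tried for the centre means only, so this difference was not checked under any of them. With runs of a highest score of at least 2, C after the site in centre regions was at -0.22 (n = 75 regions, adjusted p = 7.54e-05) and G before it at -0.19 (n = 76 regions, adjusted p = 0.00191), both smaller than above, and G after the site did not pass (0.05, n = 85 regions, adjusted p = 0.238). All 3 centre results missed the threshold with a minimum of 10 (n = 12 regions), where G before was -0.61 (adjusted p = 0.0797), C after -0.57 (adjusted p = 0.063) and G after 0.18 (adjusted p = 0.511).

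**Figure D5:**
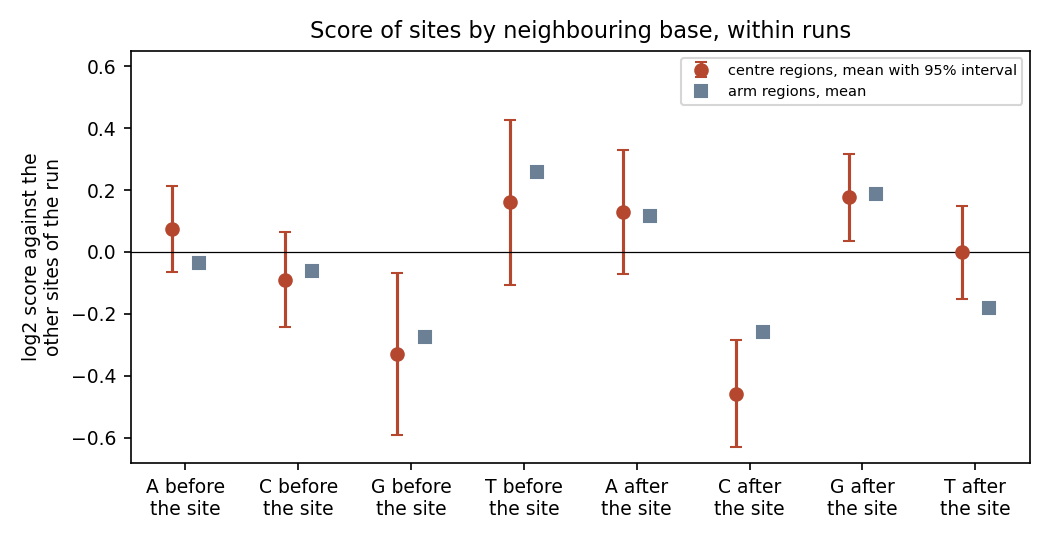
Mean log2 score of the sites next to each base, before or after, minus that of the other sites of their run (vertical axis), for centre regions with 95% intervals (red circles) and arm regions (blue-grey squares). The centre intervals for C after, G before and G after leave out 0, and the point for T after the site lies at 0 in centres and at -0.18 on arms.

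Whether the centre-arm differences were alike on II, III, IV and V was tested for each of the 19 measures. After adjustment 0 passed (Wald test in the clustered linear model, n = 1878 regions unless given next), the lowest adjusted p being 0.142, and 1 had an unadjusted p under 0.05, namely G before the site (p = 0.00746). The 8-site pattern had n = 1399 regions. The share on the less frequent strand had n = 253, with only 6 to 10 centre regions per chromosome. In log2 sites per region the differences were -0.16 on II, -0.52 on III, -0.55 on IV and -0.49 on V, and in log2 highest score -0.28, -0.44, -0.55 and -0.44. The II centre had the largest median, 14 sites, against 13 on the II arms.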

How the data were processed

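The authors deposited 1 table of C. elegans A-to-G sites for the whole series, with a position, a triplet, a score and a strand, and without a header or sample names; the meaning of the score, the caller, its filters and the genome build are unstated in the sources used here. A second table, of human positions, was not analysed here. Per the labels' protocols, rRNA-depleted RNA was RNase R or mock treated and libraries were made with the TruSeq protocol. Sites were merged at 1000 bp. A least-squares model with errors clustered by 1 Mb interval compared centre with arm regions (statsmodels 0.14.6, pandas 2.3.3, numpy 2.4.6, scipy 1.17.1, Python 3.11.15), and the code was tested on simulated data. Neighbouring regions are not independent, which the clusters address in part. Named are the 10 centre regions with the most sites, the 5 with the highest score and the 5 with the highest median score among those with at least 8 sites, the largest with 1 and with both strands on each chromosome, and those sharing an 8-site pattern. Bases were read from the listed triplets. The members, measures and lists were chosen with earlier results of these data known. The search for fold-backs, with its minimum of 15 known pairs, and for mirrored patterns was added later. Alternatives covered merging distance, minimum score, limits of the centre, region size, chromosomes left out, clusters and ranks.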

Additional observations from a re-analysis of the deposited data

How the results depend on the processing

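No paired analysis was possible because the table names no sample. Over 17 alternatives, the 19 centre-arm measures gave 318 values, of which 243 kept the direction and the side of the 0.05 threshold, 38 kept the direction and lost the call, 2 gained one and 35 changed sign. The calls for the share of sites with a score of 1 (15 of 15 alternatives), the 4-site pattern (16 of 17), the 8-site pattern (15 of 16), the highest score (15 of 17) and sites per region (14 of 16) were the ones kept most often. The minimum scores gave no value for the share of scores of 1, and the one of 5 gave none for the share on the less frequent strand. The cause of the changes below was not tested. Higher minimum scores also left fewer regions, and what part this had in the changes was not tested either.

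With only scores of at least 2 (93 centre regions), calls were lost for sites per region (-0.32 log2), span (-0.11), highest score (-0.16), both strands (-0.048 percentage points), G after (1.53) and A after (-2.02), T before gained one (6.35), and the signs turned for the median score (0.0047), density (-0.19), G before (-0.0040), C before (-2.12) and C after (-0.992). With only scores of at least 5 (31 centre regions), sites per region (-0.062), G before (0.262), G after (8.20), A before (-0.659), A after (-8.30), the 8-site pattern (-1.20) and the 4-site pattern (-11.1) lost their call. There the span (0.17), median score (0.075), highest score (0.066), both strands (1.44), density (-0.16), T before (-1.54) and T after (-0.686) turned. Merging at 100 bp turned density (-0.041). Merging at 5000 bp made density pass (0.36) and ended the calls for the median score (-0.050) and A after (-2.21), with the sign turned for C before (-0.036), T after (-0.099) and G after minus G before (-0.137).

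With the number of sites as a term, both strands (0.561), span (0.024), density (-0.024), C before (-0.045) and G after minus G before (-0.196) turned, and the median score (-0.023), G after (1.74), A before (-2.53) and A after (-2.65) lost their call. With the middle 20% as centre, both strands (-3.16) and the median score (-0.063) lost it, and C after (-0.334) and G after minus G before (-0.306) turned. With the middle 50%, C before turned (-0.358). Regions of at least 8 sites ended the calls for both strands (-3.44) and A after (-2.85) and turned C before (-0.188) and C after (-0.659). Without regions sharing an 8-site pattern, both strands (-2.47) and the median score (-0.029) lost their call and the share on the less frequent strand turned (-0.038). Errors without clusters ended the call for both strands (-3.98, n = 319 centre regions, adjusted p = 0.0584 from the linear model). Ranks turned C before (-0.097), C after (-0.239) and T after (-0.387), in rank percentage points.

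Leaving out II ended the calls for both strands (-3.15), the median score (-0.073) and A before (-2.64) and turned C before (-0.144) and T after (-0.031). Leaving out III ended G before (1.33), G after (2.00), A before (-2.97) and A after (-2.69) and turned C before (-0.192). Leaving out IV ended the median score (-0.064) and turned the share on the less frequent strand (-0.029). Leaving out V ended both strands (-3.30), G before (1.81), G after (1.56) and A after (-2.94) and turned G after minus G before (-0.246). The number of measures whose difference varied by chromosome was 1 after merging at 100 bp, 1 with scores of at least 5, 1 with ranks and 2 with the middle 20%, against 0.

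For scores within runs, a highest score of at least 2 made A after (0.094) and T before (0.19) pass, ended G after (0.051) and turned A before (-0.044). A highest score of at least 10 ended C after (-0.57), G before (-0.61) and G after (0.18). Fold-backs numbered 9 with at least 10 known pairs and 1 with at least 20, minimums added after the data were seen, against 5. Depth is unknown, so a missing site does not show an unedited adenosine, and few sites or low scores in a centre region cannot be told apart from little RNA.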
